A study of Arabidopsis thaliana with 24 samples.

Results

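E2F1, CYCD3;2 and 3xHMG-box1 are 3 cell division genes of Arabidopsis, each measured by 1 probe set. The ATH1 array holds 22746 probe sets that are not controls, and those with a single gene name 14153 loci. E2F1 is locus AT5G22220 on chromosome 5 (probe set 245685_at), also known as E2FB. CYCD3;2 is AT5G67260 on chromosome 5 (247034_at), and 3xHMG-box1 is AT4G11080 on chromosome 4 (254964_at). The platform annotation names the probe set of 3xHMG-box1, whereas those of E2F1 and CYCD3;2 are paired with their loci by the identifier column of the study's table of genes. E2F1 and CYCD3;2 were selected on having values of decay and synthesis at both temperatures within an earlier, different list of cell cycle genes. Of the genes looked up here, AT1G08180, MAP65-1 and HMGB1 had such values as well. 3xHMG-box1 was selected on its low signal at 27°C at the end of labeling and the low transcription rate that goes with it. Rates are computed from both fractions and from time 0, so every value of these genes that rests on the end of labeling, on a fraction or on a rate is given as a description, with no test. The comparison of temperatures at time 0 was tested, but time 0 signals enter the rates, so its p-values are not independent of the choice.

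D-type cyclins, of which CYCD3;2 is one, activate cyclin-dependent kinases that phosphorylate the retinoblastoma-related protein RBR. RBR restrains E2F transcription factors, and E2F proteins bound to their DP partners switch on genes of DNA replication and of the cycle itself. 3xHMG-box proteins carry several copies of the HMG-box DNA-binding domain and are found on condensed chromosomes during mitosis, so that their transcripts mark dividing cells. In a seedling most divisions take place in the root and shoot meristems and in young leaves.

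Seedlings of the ecotype Columbia germinated for 3 days at 22°C and then spent 7 days at 17°C or at 27°C, with 12 hours of light a day. Labels give an age of 10 days, and the methods a slightly higher one. All plants had floated on MS medium for 12 hours when 4SU was given, a base analog that enters RNA as it is made. Plants were harvested for total RNA at dawn (time 0), as 4SU was given, and when labeling ended, after 2 hours at 17°C and after 1 hour at 27°C. The RNA of the second harvest was biotinylated and passed over streptavidin to obtain a newly synthesized fraction that carries 4SU (NS) and a pre-existing fraction that does not (PE). The 8 resulting groups hold 3 biological replicates each, 24 arrays in all. Plants at time 0 had received no 4SU. The labels state 1.5 mM for both temperatures, and by the methods the dose was not the same at each. Temperature and labeling time cannot be told apart in any value from the end of labeling.

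Signals are MAS5 intensities on a linear scale. The mean of each array without the highest and lowest 2% of probe sets was 496 to 497, so the signal of a fraction holds no record of how much RNA it contained. Replicates correlated with a Pearson's r of 0.959 to 0.987 over the log2 signals of the 12906 probe sets (56.7%) that reached a signal of 50 on every total RNA array. All 3 genes passed this limit, with lowest total RNA signals of 86.0 for E2F1, 1218 for CYCD3;2 and 54.05 for 3xHMG-box1. Only a few tissue markers could be named: RCA, which encodes Rubisco activase of green tissue, gave 15445 to 24117 on the total RNA arrays, and the root gene BGLU23 gave 9787 to 16388. At time 0 the mean of BGLU23 was 14934 at 17°C and 11629 at 27°C, with overlapping arrays, and that of RCA was 16390 and 17196. A difference in tissue make-up between temperatures was not tested. In whole seedlings, fewer dividing cells and less RNA per dividing cell cannot be told apart. Called differences are those with a fold above 1.5 and, after Benjamini-Hochberg adjustment over the 12906 probe sets, a p under 0.01 (limma on log2 signals). A signal depends on its probes, and no gene is compared here with another by its level.

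CYCD3;2, the D-type cyclin gene, had at time 0 signals of 1965, 1678 and 2213 at 17°C and of 1218, 1500 and 1408 at 27°C. The lowest array at 17°C lay above the highest at 27°C, so the groups did not overlap. On the log2 scale the difference was -0.50 ± 0.14 (SE), a 1.42-fold lower signal at 27°C with a 95% interval of -0.81 to -0.20. With an adjusted p of 0.013 (limma) it was not called. Without 17°C replicate 2 at time 0 it would have been, at -0.61 with an adjusted p of 0.0082 (limma).

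At the end of labeling CYCD3;2 gave 1558, 1581 and 1471 at 17°C, against 1457, 1473 and 1757 at 27°C. These groups overlapped, and their means of 1537 ± 58.1 and 1563 ± 169 (SD, n = 3) differed by 0.02 on the log2 scale. From time 0 to the end, CYCD3;2 went down at 17°C by -0.34 ± 0.14 (SE) and up at 27°C by 0.18 ± 0.14. At 17°C all arrays of the end lay below all arrays of time 0, whereas at 27°C the times overlapped. The difference of the changes was 0.52 ± 0.20 (SE).

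E2F1, the transcription factor gene, stayed between 86.0 and 132 on all total RNA arrays. At time 0 its signals were 104, 121 and 132 at 17°C, compared with 100.5, 114 and 86.0 at 27°C, ranges that overlapped. The difference was -0.25 ± 0.16 (SE) on the log2 scale, with an interval of -0.59 to 0.09 and an adjusted p of 0.23 (limma). At the end of labeling E2F1 gave 99.1, 99.3 and 109 at 17°C, against 131, 107 and 91.3 at 27°C. Here the arrays at 27°C spread on both sides of those at 17°C, and the means differed by 0.08 on the log2 scale. Over the labeling period E2F1 changed by -0.21 ± 0.16 at 17°C and by 0.13 ± 0.16 at 27°C (SE), and the arrays of the 2 times overlapped at both temperatures. The difference of the changes was 0.33 ± 0.23 (SE).

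3xHMG-box1, the mitotic chromosome protein gene, was the only one of the 3 with a called temperature difference before 4SU was added. Its time 0 signals were 220.5, 216 and 235 at 17°C, compared with 60.7, 76.9 and 54.2 at 27°C. Every array at 17°C was far above every array at 27°C, and the gap between the groups was wider than either group's range. The fitted difference was -1.82 ± 0.15 (SE) on the log2 scale, 3.54-fold lower at 27°C (95% interval -2.15 to -1.50, adjusted p = 1.8e-06, limma). Of the 12906 probe sets, 22.8% were called in this comparison and 12.1% were called lower at 27°C, and 1 of the 3 genes was called. The difference of 3xHMG-box1 lay at percentile 0.666 of all differences, those of CYCD3;2 and E2F1 at 18.4 and 32.4. Time 0 signals were not used to choose the 3 genes other than through the half-lives and rates. However, 3xHMG-box1 was chosen on its low signal at 27°C at the end, where its log2 difference was -1.71, close to that at time 0. The p-value of 3xHMG-box1 at time 0 is therefore not independent of its choice and adds no separate support. At 27°C the total RNA signals of 3xHMG-box1 were among the dimmest kept, at percentiles 0.155 to 1.47 of their arrays, against 16.6 to 25.1 at 17°C. Detection calls were not used, so it is not known here whether its signals at 27°C exceed background, and its folds are ratios of the signals as given.

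At the end of labeling 3xHMG-box1 gave 182, 223 and 170.3 at 17°C, against 54.05, 59.8 and 61.1 at 27°C. The mean was 3.27-fold lower at 27°C, -1.71 on the log2 scale, as at time 0 with no overlap. Over the labeling period it changed by -0.23 ± 0.15 at 17°C and by -0.12 ± 0.15 at 27°C (SE), and the times overlapped at both temperatures. The difference of these changes was 0.11 ± 0.22 (SE). Of all probe sets 12.4% were called for a change over the labeling period at 17°C and 25.8% at 27°C, and 2.38% for the difference of the changes. Rates need a scaled PE signal below time 0 and so favor falling signals: of the 6061 probe sets with rates, 13.8% were called lower at the end at 17°C and 27.6% at 27°C, and 0.148% and 1.01% higher.

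**Figure D1:**
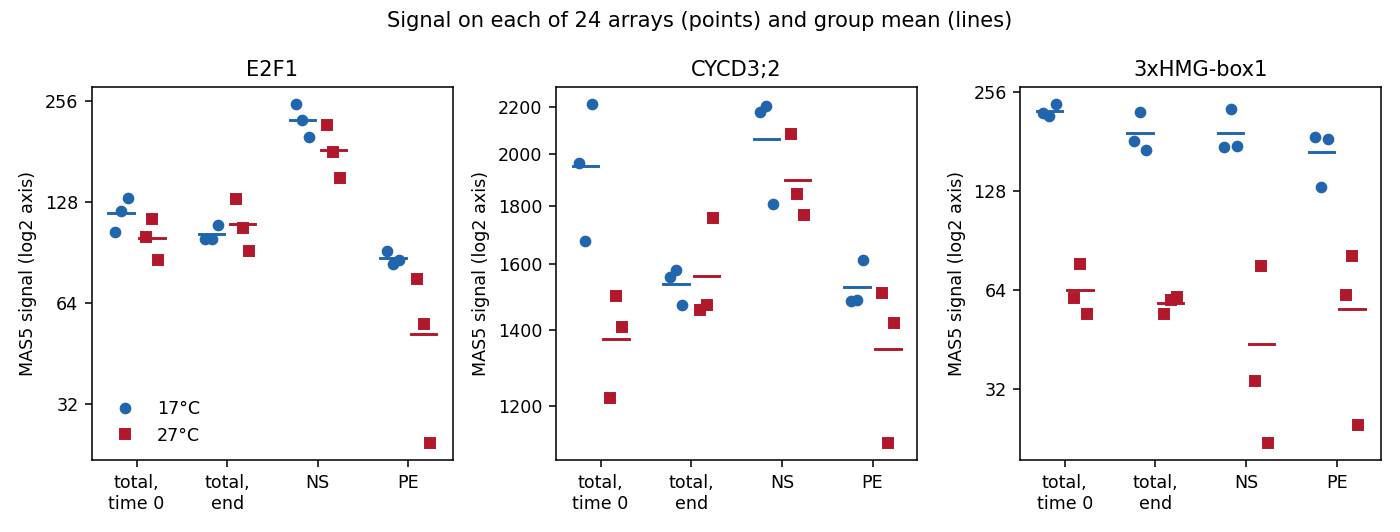
MAS5 signal of E2F1, CYCD3;2 and 3xHMG-box1 (vertical axes, log2 scaled) in total RNA at both times and in the NS and PE fractions, with 1 point per array (circles, 17°C; squares, 27°C) and lines at the means of 3 replicates. The 12 arrays of 3xHMG-box1 at 27°C, between 21.9 and 81.1, all lie below its 12 arrays at 17°C, between 132 and 235, whereas E2F1 separates mainly by kind of RNA. In CYCD3;2 NS lies above PE, but total RNA at time 0 at 17°C, with a mean of 1952, lies between the means of NS at 17°C and NS at 27°C.

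The order of the 8 groups differed among the 3 genes. E2F1 was highest in NS RNA, with means of 225 at 17°C and 183 at 27°C, followed after a gap by the 4 total RNA groups and PE at 17°C, whose neighbors all overlapped. Its lowest group was PE at 27°C with a mean of 51.9, below all arrays of the group next to it. For CYCD3;2, NS at 17°C (2064), total RNA at time 0 at 17°C (1952) and NS at 27°C (1899) came first and overlapped as neighbors. The other 5 groups of CYCD3;2, with means from 1563 down to 1346 for PE at 27°C, overlapped in the same way. NS at 27°C lay above all arrays of the next group, total RNA at the end at 27°C. Time 0 at 17°C, with a lowest array of 1678, overlapped that group, whose highest array was 1757. 3xHMG-box1 was ordered by temperature instead. All 4 groups at 17°C, from 224 at time 0 to 168 in PE, stood above all 4 groups at 27°C, from 63.9 at time 0 to 43.9 in NS, and within each temperature neighbors overlapped.

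Over the 24 arrays the log2 signals of E2F1 and CYCD3;2 had a Pearson's r of 0.69, while 3xHMG-box1 had 0.28 with E2F1 and 0.30 with CYCD3;2. These coefficients describe arrays that share plants, fractions and temperatures. Among 7734 other kept probe sets with a single gene, the pattern most like that of E2F1 was AT5G24320 (r = 0.92), followed by AT5G64220 (0.92) and CIL (0.91), each over 24 arrays. For CYCD3;2 the order was AT2G28310 (r = 0.88), AT1G19330 (0.87) and P1R1 (0.86). The probe sets most like 3xHMG-box1 were those of BGLU15, a beta-glucosidase gene (r = 0.93), AT5G51830 (0.92) and AT3G18560 (0.92). All of the last 3 were lower at 27°C at the end of labeling too, with log2 differences of -1.21, -1.84 and -1.07. They were picked by r over these same arrays, so this direction follows from the choice and is no separate result.

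Other genes were looked up in 7 lists of 98 loci, from D-type cyclins to mitotic genes and HMG-box proteins. Only 14 of these loci had a named probe set, and 10 of them passed the signal limit, the 3 genes above included. No gene of the cyclin-dependent kinase list and no second D-type cyclin or E2F-DP factor could be named, so the direct partners of CYCD3;2 and E2F1 were not analysed here. At time 0, 3 of the 7 other genes were called lower at 27°C and 1 higher (12.1% and 10.7% of all probe sets). The median difference of these 7 was -0.61 on the log2 scale, against -0.0053 over all probe sets. With the 4 spindle checkpoint and chromosome genes given below, the median of the 11 was 0.25, and 6 of them were positive. Of the 11, 4 were called lower and 2 higher.

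3xHMG-box2, the closest relative of 3xHMG-box1, resembled it at time 0, with 215, 281 and 227 at 17°C and 53.3, 73.6 and 87.4 at 27°C. Its groups did not overlap, and the difference was -1.77 ± 0.31 (SE, adjusted p = 0.00056, limma), close to the -1.82 of 3xHMG-box1. Over the 24 arrays the pair had an r of 0.74. The mitotic genes AUR1, which encodes an Aurora kinase, and CCS52B, an activator of the anaphase-promoting complex, differed by -1.41 and -0.96 (adjusted p = 0.00024 and 0.0079, limma). Unlike the 3xHMG-box pair, HMGB1, a chromatin protein gene with a single HMG-box, was higher at 27°C by 0.65 (adjusted p = 0.0015, limma). MCM7, a subunit of the replicative helicase, was not called (-0.61, adjusted p = 0.057, limma), and neither was the inhibitor gene SIM (0.54, adjusted p = 0.016).

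At the end of labeling, 10.8% of all probe sets were called between temperatures, 5.87% as lower at 27°C. Of the 7 other genes 2 were, both of them lower at 27°C: 3xHMG-box2 by -1.52 and AUR1 by -1.19 (adjusted p = 0.0034 and 0.0017, limma). The value of 3xHMG-box1 in the same fit was -1.71, and those of E2F1 and CYCD3;2 were 0.08 and 0.02. In 8 spindle checkpoint and chromosome genes added after their probe names were seen, 4 passed the limit. BUB3.1, a spindle checkpoint gene, was called lower at 27°C at time 0 (-1.53, adjusted p = 5.5e-05, limma), and SYN4, a cohesin subunit gene, was called higher (0.72, adjusted p = 0.0071). At the end BUB3.1 was again called lower (-0.92, adjusted p = 0.0048, limma), and MAP65-1, which encodes a microtubule-bundling protein, was called higher (0.62, adjusted p = 0.0050).

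The signal limit removes genes with low signals at 27°C. AUR3, another Aurora kinase gene, gave 139, 116 and 113 at 17°C, compared with 2.56, 26.7 and 19.5 at 27°C at time 0, and was not called in the fit of all 22746 probe sets (-3.47, adjusted p = 0.012, limma). In that fit 8.43% of probe sets were called at time 0, and none of the 4 listed genes below the limit was among them. CYCA1;1 (-1.27), AUR2 (-1.22) and ICU2 (-0.56) differed by less than AUR3 did. 3xHMG-box1, whose dimmest total RNA array lay just above the limit, was called with and without it.

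**Figure D2:**
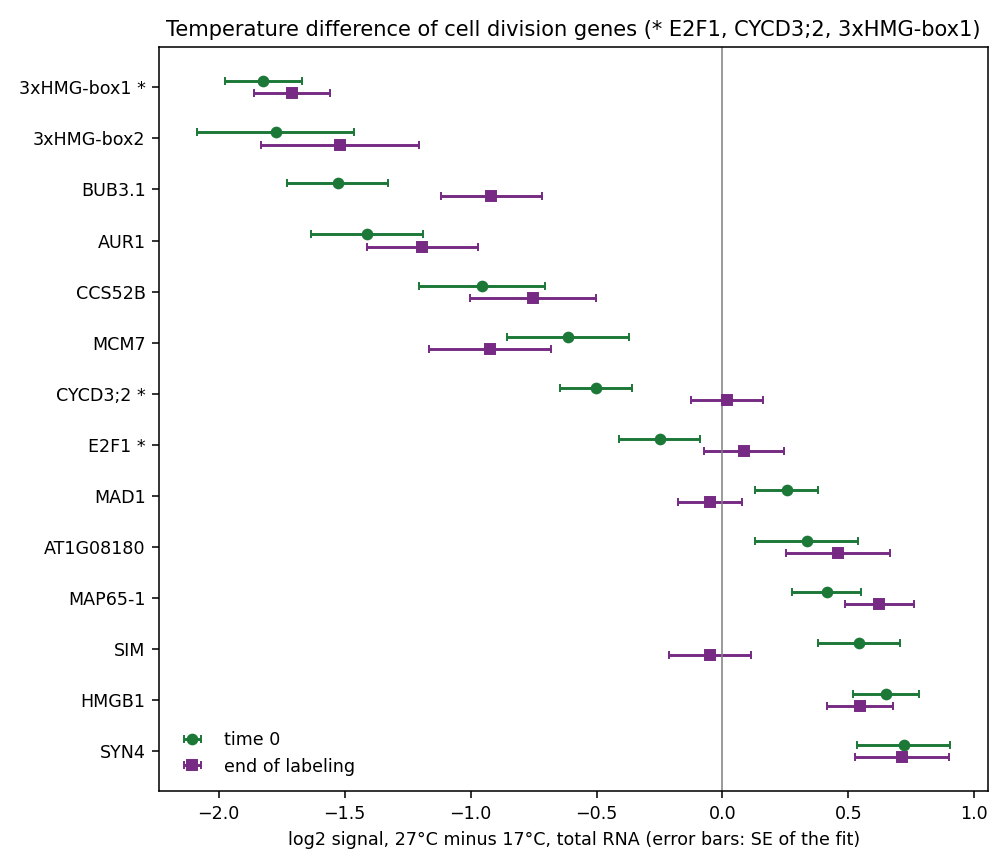
Difference in log2 total RNA signal between 27°C and 17°C (horizontal axis) for the 14 kept genes of the lists, HMGB1 included. Circles show time 0 and squares the end of labeling, with the SE of the fit as bars. An asterisk marks E2F1, CYCD3;2 and 3xHMG-box1. 3xHMG-box1 has the most negative values at both times (-1.82 and -1.71), next to 3xHMG-box2, while CYCD3;2 lies at -0.50 at time 0 and at 0.02 at the end.

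In the NS fraction E2F1 gave 250.4, 225 and 201 at 17°C, against 217, 181 and 151 at 27°C. Its PE signals were 91.7, 83.6 and 86.1 at 17°C, compared with 75.7, 55.5 and 24.5 at 27°C. At both temperatures every NS array was above every PE array. E2F1 was 2.58-fold higher in NS than in PE RNA at 17°C (1.37 ± 0.31 on the log2 scale, SE) and 3.86-fold higher at 27°C (1.95 ± 0.31). The median difference of all probe sets was 0.29 at 17°C and 0.37 at 27°C, and E2F1 exceeded it by 1.08 and 1.58. Of all probe sets 35.6% were called higher in NS at 17°C and 37.7% at 27°C. Among probe sets with rates, for which a low PE signal is required, the shares were 47.3% and 48.2%.

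After quantile normalization the difference of E2F1 at 17°C was 0.94. Without 27°C replicate 3, whose PE signal of 24.5 was the lowest, the difference at 27°C was 1.61. Between temperatures the NS signal of E2F1 differed by -0.31 and the PE signal by -0.89 on the log2 scale, the latter with no overlap, or by -0.43 without that replicate. NS minus PE at 27°C exceeded that at 17°C by 0.58 ± 0.43 (SE), a comparison in which 0.0697% of all probe sets were called.

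CYCD3;2 gave NS signals of 2180, 2205 and 1807 at 17°C and 2084, 1846 and 1768 at 27°C. In PE it gave 1483, 1487 and 1614 at 17°C, against 1508, 1112 and 1419 at 27°C. NS lay above PE on all arrays of both temperatures. The difference was 0.43 ± 0.15 at 17°C (SE, 1.35-fold) and 0.50 ± 0.15 at 27°C (1.42-fold), each 0.14 above the median of all probe sets. Its size depended on the processing: under alternatives that kept all arrays it ranged from 0.16 to 0.56 at 17°C and from 0.10 to 0.58 at 27°C. Between temperatures both fractions of CYCD3;2 overlapped, with differences of -0.12 in NS and -0.19 in PE on the log2 scale. NS minus PE differed between temperatures by 0.08 ± 0.21 (SE).

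For 3xHMG-box1 the NS signals were 175, 228 and 175 at 17°C, compared with 33.9, 75.9 and 21.9 at 27°C. The PE signals were 187, 132 and 184 at 17°C, against 62.0, 81.1 and 24.8 at 27°C. Both fractions were lower at 27°C on every array, by -2.32 in NS (4.98-fold) and -1.73 in PE (3.31-fold). Without 27°C replicate 3 these were -1.91 and -1.22. Neither temperature separated NS from PE, with overlapping arrays and differences of 0.20 ± 0.44 at 17°C and -0.38 ± 0.44 at 27°C (SE). The sign at 17°C changed with the scaling, to -0.27 after quantile normalization and -0.06 after centering on the array median. NS minus PE differed between temperatures by -0.59 ± 0.62 (SE). The signals at 27°C lay at percentiles 0.287 to 1.72 of the NS arrays and 0.147 to 5.03 of the PE arrays.

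Fractions can be set against total RNA only after scaling with 2 factors from a regression of PE/T on NS/T, with T the total RNA signal at the end. At 17°C the factor for NS (Cn) was 0.135 and that for PE (Cp) 0.847. At 27°C Cn was 0.219 and Cp 0.769. Scaled in this way, NS RNA made up 29.7% ± 4.69 of the E2F1 signal after 2 hours at 17°C and 36.4% ± 0.310 after 1 hour at 27°C (SD, n = 3), against medians of 15.9% and 26.1% over all kept probe sets. CYCD3;2 was near these medians with 18.0% ± 1.31 and 26.9% ± 4.66. 3xHMG-box1 lay below them with 13.5% ± 0.487 and 16.4% ± 10.2, the latter from single values of 13.7%, 27.8% and 7.84%.

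The factors are set so that scaled NS and PE add up to the total signal over the probe sets as a whole. For CYCD3;2 the sum was 98.4% to 109% of the total at 17°C and 84.1% to 111% at 27°C. For E2F1 it was 91.5% to 112% at 17°C but only 80.8%, 76.5% and 56.9% at 27°C, so that all 3 replicates fell short there. For 3xHMG-box1 it was 100.2%, 63.7% and 106% at 17°C and 102%, 132% and 39.1% at 27°C. The replicates of this dim transcript thus disagreed by more than those of the others, and 27°C replicate 3 gave the lowest sum at 27°C for all 3 genes.

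**Figure D3:**
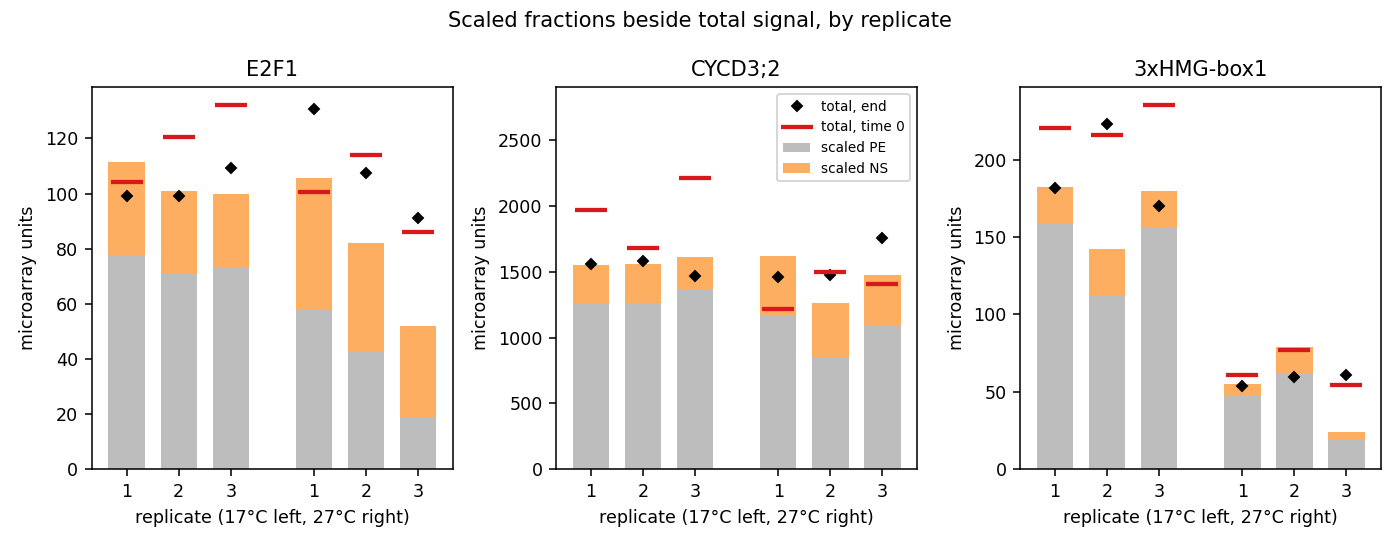
Scaled PE (gray) and scaled NS (orange) stacked for each replicate, with the total RNA signal at time 0 (red lines) and after labeling (black diamonds), in microarray units, from 17°C (left 3 bars) to 27°C (right 3 bars). The stacks of CYCD3;2 reach 84.1% to 111% of the diamonds, those of E2F1 at 27°C reach 56.9% to 80.8%, and 3xHMG-box1 has low stacks at 27°C together with low total signals.

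PE RNA that remained at the end, as a share of the time 0 signal, gives the half-life. For E2F1 the share was 62.9% ± 10.3 at 17°C and 39.1% ± 18.1 at 27°C (SD, n = 3), where the medians of all kept probe sets were 81.9% and 71.8%. Half-lives of E2F1 at 17°C were 4.73, 2.61 and 2.34 hours, and at 27°C they were 1.27, 0.705 and 0.456 hours. All replicates at 27°C were shorter, and the means of 3.23 ± 1.31 and 0.811 ± 0.418 hours lay at percentiles 45.3 and 28.6 of the 6061 probe sets with rates, whose medians were 3.54 and 1.10 hours. The ratio of the means, the Q10 of decay over the 10°C step, was 3.98, compared with a median of 2.99. From the means of each group it was 3.86. The half-life of 0.456 hours rests on a PE signal of 24.5, at percentile 0.132 of its array. Without single replicates the half-life at 27°C was 0.587 to 1.05 hours. Scaled NS and PE of E2F1 reached only 80.8%, 76.5% and 56.9% of the total at 27°C, and what this shortfall does to the half-life was not tested.

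CYCD3;2 kept 67.0% ± 7.13 of its time 0 signal at 17°C and 76.6% ± 19.1 at 27°C. Its half-lives at 17°C were 3.1, 4.84 and 2.88 hours, and those at 27°C were 14.2, 1.23 and 2.72 hours. The values at 27°C surround those at 17°C, and the mean at 27°C, 6.06 ± 7.11 hours, rests on replicate 1, in which 95.2% of the time 0 signal remained. Left out in turn, single replicates moved this mean between 2.05 and 30.6 hours. The Q10 of decay was 0.596, at percentile 2.46. Time 0 and PE arrays were matched by replicate number although different plants were harvested, and with the means of each group in place of this matching the half-lives of CYCD3;2 were 3.38 and 2.44 hours and the Q10 was 1.38, at percentile 6.65. Replicate 1 of CYCD3;2 at 27°C was the closest of the 3 genes to the limit at which no half-life exists, while 3xHMG-box2, with a mean of 90.7% at 27°C, lay beyond it in at least 1 replicate.

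3xHMG-box1 kept 63.4% ± 10.5 of its time 0 signal at 17°C and 65.0% ± 25.8 at 27°C, with half-lives of 4.22, 2.1 and 3.39 hours in the cool and of 2.88, 3.32 and 0.664 hours in the warm. The ranges overlapped, and the means of 3.24 ± 1.07 and 2.29 ± 1.42 hours fell at percentiles 45.5 and 81.0. A Q10 of decay of 1.41 followed, at percentile 11.2, and one of 1.74 from the means of each group. Without replicate 3 the half-life at 27°C was 3.73 hours, and with the end level as starting level that at 17°C was 9.40 hours.

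Transcription rates of E2F1 were 19.4, 19.5 and 17.9 microarray units per hour at 17°C, compared with 61.5, 62.1 and 64.3 at 27°C. The rates of E2F1 thus lay within a few units of each other, with means of 18.9 ± 0.913 and 62.6 ± 1.47 (SD, n = 3). The values behind them at 27°C agreed less. Scaled NS was 47.4, 39.5 and 33.1, and the half-lives were 1.27, 0.705 and 0.456 hours. With single replicates left out, the rate of E2F1 at 27°C was 54.7 to 61.0, so the SD does not hold its full uncertainty. The rates of CYCD3;2 were 182, 171 and 153 units per hour at 17°C and 467, 528 and 438 at 27°C. Those of 3xHMG-box1 were 13.8, 20.9 and 14.3 at 17°C, compared with 8.36, 18.4 and 7.72 at 27°C, overlapping, with means of 16.3 ± 3.96 and 11.5 ± 5.99. Over the 6061 probe sets the median rate was 42.1 at 17°C, with 147.6 at 27°C.

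Rates of the first 2 genes were higher at 27°C although their NS signals were not. The step between the signals and the rates holds 2 constants shared by all probe sets, a Cn that was 1.63 times higher at 27°C and a labeling time that was 2 times longer at 17°C. Together they multiply the ratio of 27°C to 17°C by 3.25 before any gene-specific decay enters. The Q10 of transcription was 3.31 for E2F1 (percentile 44.9) and 2.84 for CYCD3;2 (percentile 26.6), with a median of 3.46. For 3xHMG-box1 it was 0.703, at percentile 0.0660 of the 6061 probe sets, and 0.722 from the means of each group. The low rate of 3xHMG-box1 at 27°C was part of how it was chosen, so this place follows from the choice. That rate rests on NS signals of 33.9, 75.9 and 21.9, which are not known to exceed background. Without replicate 2 the rates of 3xHMG-box1 were 12.2 at 17°C and 7.56 at 27°C. All replicates of a temperature share 1 Cn, so the SDs leave out its error. With 1 regression per replicate, the rates of E2F1 were 14.2 at 17°C and 46.8 at 27°C.

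**Figure D4:**
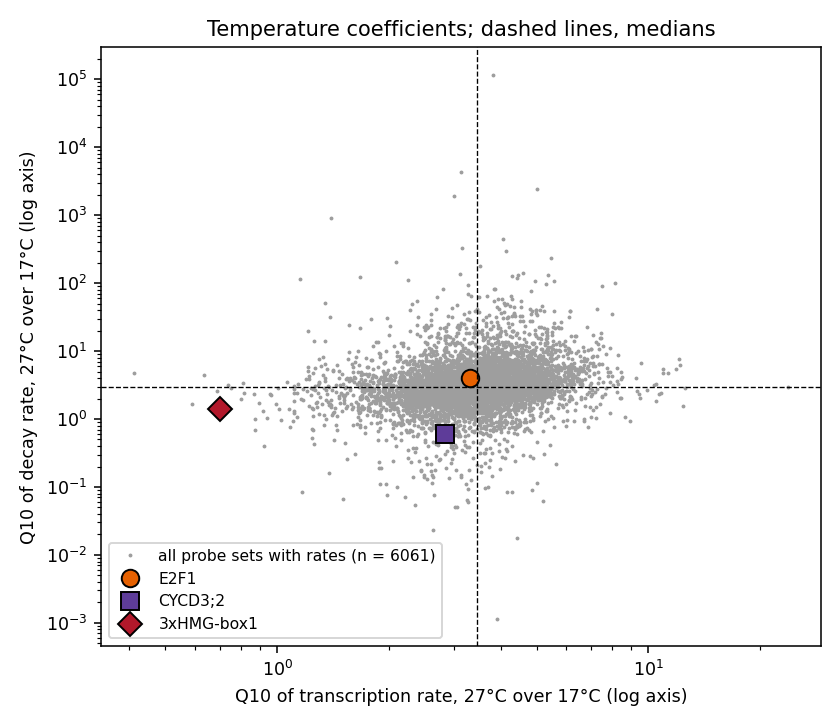
Q10 of decay (vertical, log axis) against Q10 of transcription (horizontal, log axis) for the 6061 probe sets with rates, 1 gray point each, with dashed lines at the medians of 2.99 and 3.46. E2F1 lies near the center of the cloud, CYCD3;2 below it at a decay Q10 of 0.596, and 3xHMG-box1 at the left edge at a transcription Q10 of 0.703. The place of 3xHMG-box1 follows from its choice, which rested in part on its low transcription rate.

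Of the 11 other kept genes of the lists, 3 had rates at both temperatures. HMGB1 gave 47.7 ± 1.67 units per hour in the cool and 177 ± 20.3 in the warm, and MAP65-1 gave 58.3 ± 10.8 and 255 ± 25.2. AT1G08180, from the list of cyclin-dependent kinase inhibitors, gave 19.4 ± 3.54 and 90.1 ± 22.3. The mitotic and replication genes 3xHMG-box2, AUR1, CCS52B, MCM7 and BUB3.1 lacked a rate at 1 or both temperatures. For MCM7 the scaled PE signal was 165% of the time 0 signal at 17°C and 129% at 27°C. In NS, where 12% of all probe sets were called between temperatures and 5.89% as lower at 27°C, AUR1 (-1.51) and CCS52B (-1.52) were called lower at 27°C (adjusted p = 0.0020 and 0.0059, limma), beside the -2.32 of 3xHMG-box1. In PE, with 8.93% called and 5.52% as lower, 3xHMG-box2 (-1.30) and CCS52B (-1.74) were called lower (adjusted p = 0.0067 and 0.0034, limma), beside -1.73 for 3xHMG-box1.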

How the data were processed

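The authors hybridized each RNA to an ATH1 array and computed MAS5 signals, and the deposited intensities are these signals on a linear scale (the sources used here give no MAS5 version). The value table has 22810 rows, of which the 64 AFFX controls were dropped. In place of detection calls, a signal of 50 or more on all 12 total RNA arrays was required. The platform annotation gives 1 gene for 13513 probe sets, the identifier column of the study's gene table for 823 more, several genes for 526 and none for 7884. Of 1098 probe sets named by both, 1059 had the same locus. Only part of the study's table was used, and its columns of rates and comparisons were not read.

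Linear models of log2 signals (lmFit, then eBayes) were fitted with limma 3.58.1 under R 4.3.3, separately for the 12 total RNA and the 12 fraction arrays, after a test on simulated data. Calls required a Benjamini-Hochberg adjusted p under 0.01 and a fold above 1.5. Cn and Cp came from 1 regression per temperature on ratios averaged over replicates, and half-lives and rates from the formulas of the methods within each replicate, with arrays matched by number (an alternative added after seeing the data used the means of each group). Tests of the 3 genes between times and between fractions were planned, but their p-values are not given because the choice of the genes rests on these values. Fractions of 1 replicate come from the same RNA, and their deviations from the group means correlated with r of 0.149 to 0.333 for every pair. Alternatives were quantile normalization, centering on the array median, an offset of 16, no signal limit, 1 fit of all arrays, a replicate block, each array or replicate left out, 1 regression per replicate, a regression over all probe sets and the end level as starting level.

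The named genes are the 3 genes, the 3 probe sets most like each, and from each list up to 4 called genes or else the one with the largest change. SYN4, BUB3.1, MAP65-1, AUR3, MCM7, SIM, CYCA1;1, AUR2 and ICU2 are named beside this rule and were chosen with their values seen. The genes and the lists were chosen with earlier results of these data known. Precision is limited by 3 arrays per group.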

Additional observations from a re-analysis of the deposited data

How the results depend on the processing

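Under alternatives that kept all arrays, 248 values kept their direction and their side of the threshold. Of the others, 3 reversed, 10 moved in size, 12 were weaker and 2 stronger. With an array or replicate left out, 309 values stayed the same, 6 reversed, 9 moved in size, 33 were weaker and 2 stronger. The called difference of 3xHMG-box1 at time 0 stayed called throughout, from -1.82 to -1.59 on the log2 scale, and from -1.96 to -1.71 with an array left out. Quantile normalization gave 0.94 for NS minus PE of E2F1 at 17°C and -0.27 for 3xHMG-box1, and 4 probe sets in place of 9 for the difference of NS minus PE between temperatures. Centering on the array median gave -0.060 for 3xHMG-box1 at 17°C and -0.065 for the difference of NS minus PE of CYCD3;2 between temperatures. With an offset of 16 the difference of 3xHMG-box1 at the end was -1.48 and 18 probe sets were called for NS minus PE between temperatures, a count that was 116 in 1 fit of all arrays. Without the signal limit NS minus PE of E2F1 at 17°C was 1.37, as with it. Counts of called probe sets were then 1917 against 2941 at time 0, 736 against 1598 and 42 against 307 for the change at 17°C and the difference of changes, 677 against 1399 at the end, 754 against 1554 in NS, 502 against 1152 in PE and 0 against 9 for the difference of NS minus PE.

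The replicate block moved the count for the difference of changes from 307 to 153 and changed no other call of the 3 genes or count by over 1.5 times. Total RNA arrays of the same number correlated only weakly within a temperature, with -0.0051 to 0.161. The same number was still the best match for every replicate at 27°C and for replicates 1 and 3 at 17°C. Whether these arrays share more than a number was not tested.

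With 1 regression per replicate, rates of E2F1 were 14.2 and 46.8 units per hour at 17°C and 27°C, that of CYCD3;2 at 17°C was 126, and the half-life of 3xHMG-box1 at 27°C was 3.87 hours. With the end level as starting level, the rates of E2F1 were 17.7 and 65.1, that of CYCD3;2 at 17°C was 152, and half-lives at 17°C were 10.5 hours for CYCD3;2 and 9.40 for 3xHMG-box1. From the means of each group, added after seeing the data, half-lives at 27°C were 2.44 hours for CYCD3;2 and 1.76 for 3xHMG-box1. A regression over all probe sets left 1049 with rates in place of 6061. For these values the cause was not tested.

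With single arrays left out, or all arrays of 27°C replicate 3 (chosen after seeing the data), the difference of CYCD3;2 at time 0 ranged from -0.61 to -0.41 and was called without the 17°C array of replicate 2. Its NS minus PE at 27°C ranged from 0.37 to 0.60 and the difference of NS minus PE between temperatures from -0.056 to 0.17, negative without the NS array of 17°C replicate 3 or the PE array of 27°C replicate 2. The change at 27°C ranged from -0.0072 to 0.25 for E2F1, turned by the end array of replicate 1, and from -0.26 to 0.023 for 3xHMG-box1, turned by the time 0 array of replicate 2. For 3xHMG-box1 the difference of changes ranged from -0.032 (without 27°C replicate 3) to 0.25 and NS minus PE at 27°C from -0.89 to 0.022 (without the NS array of replicate 3).

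Without single replicates, rates at 17°C were 16.2 to 18.5 for E2F1, 145 to 167 for CYCD3;2 and 12.2 to 17.3 for 3xHMG-box1, and rates at 27°C were 54.7 to 61.0 for E2F1, 425 to 466 for CYCD3;2 and 7.56 (without replicate 2) to 12.6 for 3xHMG-box1. Half-lives at 27°C were 2.05 to 30.6 hours for CYCD3;2, the highest without replicate 3, and 1.90 to 3.73 for 3xHMG-box1. Called probe sets numbered 1055 to 1309 for the change at 17°C (lowest without the time 0 array of replicate 1), 1989 to 3007 at 27°C, 108 to 327 for the difference of changes, 851 to 1124 at the end, 690 to 1348 in NS, 572 to 851 in PE and 0 to 4 for the difference of NS minus PE. The lowest counts at 27°C, of the difference of changes, at the end, in NS and in PE all came without 27°C replicate 3.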
